A study of Mus musculus with 8 samples.

Results

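The 9 genes described here encode the enzymes that write, copy and remove DNA methylation in the mouse, namely Dnmt1, Dnmt3a, Dnmt3b, Dnmt3l, Tet1, Tet2, Tet3, Uhrf1 and Tdg. They were taken by symbol from the 32567 genes of an RNA-seq count table, by a rule that uses no measured value, though earlier results of these data were known when it was set, and all 9 passed the limit on low expression. The study asked how loss of huntingtin, the protein encoded by Htt, alters embryonic stem cells (ESC) and their developmental response to retinoic acid. Poly-A-plus RNA was sequenced from ESC and from retinoic acid-differentiated cells (RA-DIFF), both in wild-type cells and in cells with 2 copies of the Hdh ex4/5 targeted null allele of Htt (Htt-null), with 1 library for each of the 4 conditions. ESC were grown for 4 passages without feeder cells. RA-DIFF cells came from 8 days of embryoid body culture with 5 µM retinoic acid from day 4 to day 8, and were collected 2 h after plating. Nothing in the sources used here says how many clones or cultures stand behind a line. As the RNA comes from whole cultures, fewer cells of a type and less RNA per cell cannot be told apart.

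In mammalian DNA a methyl group sits mostly on the cytosine of a CpG dinucleotide. DNMT3A and DNMT3B place new methyl groups, DNMT3L assists them without catalytic activity of its own, and DNMT1, guided by UHRF1 to hemimethylated sites, copies the pattern onto the new strand after DNA replication. TET1, TET2 and TET3 oxidise the methylated base, and TDG excises the most oxidised forms so that base excision repair can restore an unmethylated cytosine.

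The 4 libraries held between 63617410 and 110569127 counts, and a count of 0 allows up to 0.0472 CPM, counts scaled to a common library total, in the shallowest. With 1 library per condition no difference below has a replicate check and no p-value is given. A log2 ratio was called when it lay past 0.75 in either direction, after trimmed mean of M-values (TMM) scaling, and intervals at the 95% level cover counting error only. In RA-DIFF the libraries may carry exchanged labels. Htt, whose transcript was targeted, stood at 163.6 CPM in wild-type and 114.1 CPM in Htt-null ESC, but in RA-DIFF at 74.3 CPM under the wild-type label and 96.3 CPM under the Htt-null label. Gene-level counts also hold exons outside the targeted ones. The per-condition levels tabulated with the study, in the part that could be read, matched each ESC column of its own label and each RA-DIFF column of the opposite label. RA-DIFF libraries are therefore named by their labels, and with exchanged labels every genotype difference in RA-DIFF keeps its size and changes its sign, and the ratios of RA-DIFF over ESC in each line change as well. A ratio of RA-DIFF over ESC in wild-type or Htt-null cells below compares the libraries that carry that label.

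The labelled cell states were checked with marker genes. All 12 pluripotency genes were called lower in RA-DIFF under both labels, with Pou5f1 at 65651 and 42853 counts in wild-type and Htt-null ESC and at 1324 and 123 counts in RA-DIFF labelled wild type and Htt-null. All 8 neural progenitor genes were called higher in both, as were 11 of 12 neuronal genes. The other, Stmn2, was not called in wild-type cells (log2 ratio -0.07) and was called lower in Htt-null cells (-1.14). Of all genes tested, 33.9% were called higher and 26.1% lower with differentiation as labelled wild type, and 34.3% and 24.8% as labelled Htt-null. The RA-DIFF libraries also differed from each other in makeup. Neuronal genes summed to 3291 CPM in the library labelled wild type and 1465 CPM in that labelled Htt-null, whereas 12 fibroblast and mesenchyme genes summed to 781.3 and 2914 CPM. The part of these shifts in the differences described below was not tested.

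Neither gene of the maintenance step was called. Dnmt1, the maintenance methyltransferase (ENSMUSG00000004099, chr9:20907206-20959888, minus strand, GENCODE vM21 on GRCm38), was at 474.7 CPM in wild-type ESC, 427.7 in Htt-null ESC, 445.9 in RA-DIFF labelled wild type and 398.7 in RA-DIFF labelled Htt-null. Its log2 ratio of RA-DIFF over ESC was -0.13 in wild-type and -0.03 in Htt-null cells, neither past the limit. Uhrf1, the partner that finds hemimethylated DNA (ENSMUSG00000001228, chr17:56303321-56323486, plus strand), was at 363.0, 304.6, 300.6 and 270.3 CPM in the same order of libraries. Its log2 ratios with differentiation were -0.31 and -0.10. As labelled both genes were lower in the Htt-null than in the wild-type library at either stage, by log2 ratios between -0.31 and -0.10, all short of the limit. With exchanged labels the ratios in RA-DIFF would be 0.107 for Dnmt1 and 0.098 for Uhrf1. Beside them, of 12 genes of the S phase of the cell cycle 5 were called lower in RA-DIFF in wild-type and 7 in Htt-null cells, against 26.1% and 24.8% of all genes tested, with medians of -0.66 and -0.82. None of the 12 was called between genotypes, against 5.14% of all genes past the limit upwards in ESC and 3.47% downwards, and 11.7% and 8.99% in RA-DIFF.

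**Figure D1:**
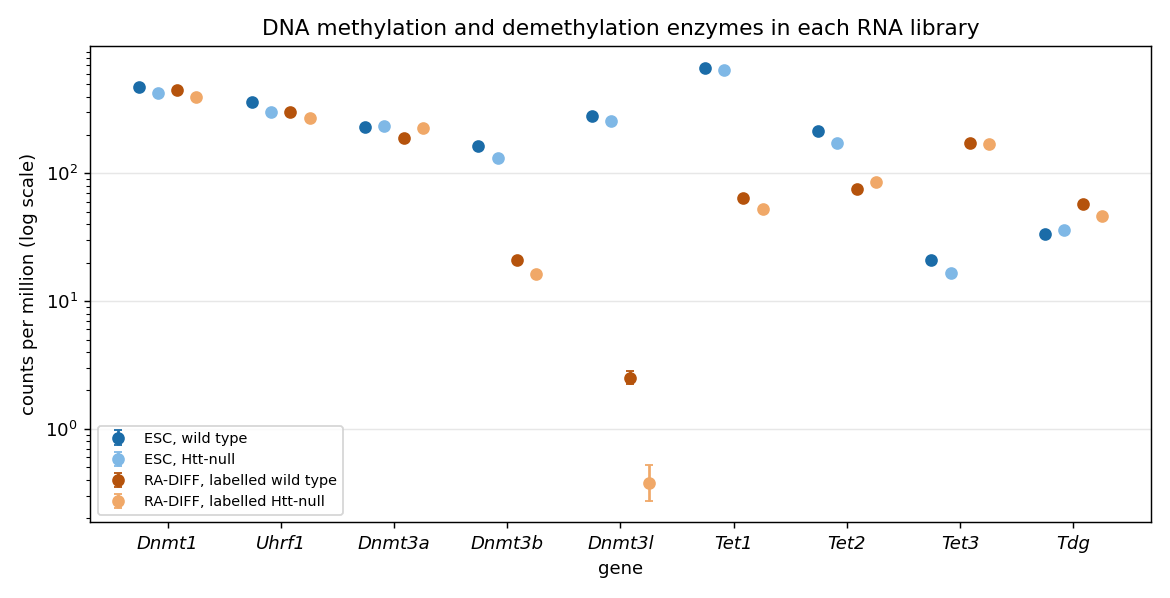
CPM of the 9 genes (log scale) in the 4 RNA libraries, 1 point a library, with 95% Wilson intervals for counting error. Dnmt1, Uhrf1 and Dnmt3a stay near their ESC levels, Dnmt3b, Dnmt3l, Tet1 and Tet2 are lower in both RA-DIFF libraries and Tet3 is higher, and Dnmt3l alone parts the RA-DIFF libraries widely, at 2.505 and 0.3765 CPM.

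Within the Dnmt3 family Dnmt3b and Dnmt3l were called lower with differentiation and Dnmt3a was not called. Dnmt3a (ENSMUSG00000020661, chr12:3806007-3914443, plus strand) was at 232.4 CPM in wild-type ESC, 236.2 in Htt-null ESC, 190.3 in RA-DIFF labelled wild type and 228.4 in RA-DIFF labelled Htt-null. Its log2 ratios of RA-DIFF over ESC were -0.33 and 0.02, both inside the limit, and the second turned to -0.05 with scaling by library size alone. The gene has an internal start site used for a shorter protein, and counts per gene sum its isoforms.

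Dnmt3b, the other catalytic member (ENSMUSG00000027478, chr2:153649450-153687730, plus strand), was at 162.6, 133.1, 21.1 and 16.2 CPM in the same order. Both RA-DIFF libraries lay far below both ESC libraries, with log2 ratios of -2.98 (-3.05 to -2.92) in wild-type and -2.96 (-3.04 to -2.89) in Htt-null cells. RA-DIFF thus held 12.7% and 12.8% of the ESC level as labelled. With exchanged RA-DIFF labels the log2 ratios would be -3.31 in wild-type and -2.64 in Htt-null cells, still past the limit in both.

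Dnmt3l, the catalytically inactive cofactor (ENSMUSG00000000730, chr10:78041947-78063622, plus strand), had the largest difference of the 9 genes. It had 24654 counts in wild-type and 16432 in Htt-null ESC, against 277 counts in RA-DIFF labelled wild type and 38 in RA-DIFF labelled Htt-null. In CPM these were 280.4, 258.3, 2.51 and 0.377. The log2 ratio of RA-DIFF over ESC was -6.83 in wild-type and -9.27 in Htt-null cells, which left 0.877% and 0.162% of the ESC level. With exchanged RA-DIFF labels these would be -9.45 and -6.66, so that the line with the deeper difference depends on the labels.

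The oxidising enzymes changed places. Tet1 (ENSMUSG00000047146, chr10:62804570-62899118, minus strand) had the highest CPM of the 9 genes in ESC, 668.6 in wild-type and 645.2 in Htt-null cells, and stood at 63.9 and 52.5 CPM in RA-DIFF labelled wild type and Htt-null. Its log2 ratios with differentiation were -3.43 (-3.46 to -3.39) and -3.55 (-3.59 to -3.51), so that 9.3% and 8.56% of the ESC level remained. Tet2 (ENSMUSG00000040943, chr3:133463679-133545139, minus strand) was at 216.3, 173.7, 75.9 and 85.2 CPM. It was called lower in RA-DIFF in both lines as well, by log2 ratios of -1.55 in wild-type and -0.96 in Htt-null cells, a shallower difference than that of Tet1, and the second call was lost at a limit of 1. With exchanged RA-DIFF labels they would be -1.33 and -1.18, both past that limit. Tet3 (ENSMUSG00000034832, chr6:83362373-83459084, minus strand) went the other way, from 21.1 and 16.5 CPM in ESC to 174.0 CPM in RA-DIFF labelled wild type and 169.1 CPM in RA-DIFF labelled Htt-null. As labelled it was 8.0-fold higher in RA-DIFF than in ESC for wild type (log2 ratio 3.00, 2.93 to 3.07) and 10.8-fold higher for Htt-null (3.43, 3.34 to 3.52). With exchanged RA-DIFF labels the log2 ratios would be 3.01 and 3.42.

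Tdg, the glycosylase that completes removal (ENSMUSG00000034674, chr10:82629828-82650799, plus strand), was at 33.7 CPM in wild-type ESC, 36.2 in Htt-null ESC, 58.0 in RA-DIFF labelled wild type and 46.6 in RA-DIFF labelled Htt-null. Its log2 ratios with differentiation were 0.74 (0.68 to 0.81) and 0.44 (0.37 to 0.51). The first lay just inside the limit, and with scaling by library size alone it lay outside it.

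Counted together, 1 of the 9 genes, Tet3, was called higher with differentiation in wild-type cells, where 33.9% of the 15492 genes tested were, and 4 of the 9, Dnmt3b, Dnmt3l, Tet1 and Tet2, were called lower, where 26.1% of all were. The same genes were called in Htt-null cells, with 1 higher against 34.3% of all genes and 4 lower against 24.8%. A call in this comparison is therefore common across the table, and the sizes carry more than the counts. The median log2 ratio of all genes tested was 0.12 in wild-type and 0.17 in Htt-null cells.

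Levels of different genes were compared per length of merged exons, on the TPM scale, which divides by length and sets each library to a common sum. In both ESC libraries Dnmt3l led, at 355.7 and 317.0 TPM, followed by Uhrf1, Dnmt1, Tet1, Dnmt3b, Dnmt3a, Tet2, Tdg and Tet3, the last at 4.8 and 3.62 TPM. In both RA-DIFF libraries Uhrf1, Dnmt1 and Dnmt3a led in that order, at 274.0, 234.6 and 44.4 TPM in the library labelled wild type, and Dnmt3l came last at 3.26 and 0.503 TPM. Dnmt3l thus went from the first place to the last, while Tet3 moved up from the last to the fifth and the fourth place. In the library labelled wild type the neighbours Tdg and Tet3, at 41.9 and 40.5 TPM, overlapped in their counting intervals, as did Dnmt3b and Tet1 at 16.1 TPM each. In that labelled Htt-null Tet1 and Dnmt3b overlapped, at 13.6 and 12.7 TPM.

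The makeup of each family showed the change in proportion. Of the summed Tet level per length, Tet1 made up 75.4% in wild-type and 78.7% in Htt-null ESC, and 21.7% and 18.3% in RA-DIFF labelled wild type and Htt-null. The share of Tet3 went from 2.21% and 1.86% in ESC to 54.7% and 54.5% in RA-DIFF, while that of Tet2 stayed between 19.4% and 27.2%. These shares depend on the length used. With the longest transcript Tet1 and Tet2 were at 133.4 and 67.55 TPM in wild-type ESC, against 164.0 and 48.61 TPM by merged exons. The Tet sum by merged exons was 217.4 and 194.5 TPM in ESC and 73.96 and 74.13 TPM in RA-DIFF, so the larger share of Tet3 belonged to a smaller whole. In the Dnmt3 family, Dnmt3l made up 67.2% and 68.2% in ESC, and 5.11% and 0.74% in RA-DIFF labelled wild type and Htt-null. Dnmt3a, whose level per length stayed between 44.4 and 54.8 TPM in all libraries, went from 9.998% and 11.2% of the family sum to 69.7% and 80.6%.

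**Figure D2:**
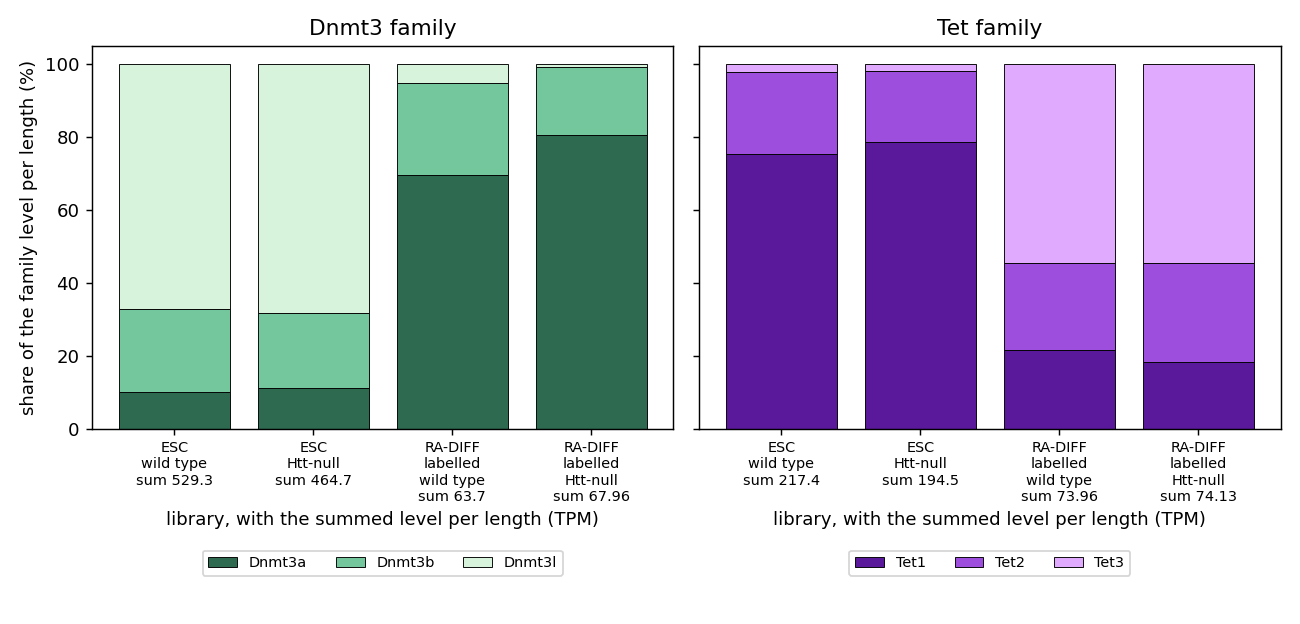
Share of each gene in the summed level per length (TPM, bars to 100%) of the Dnmt3 and Tet families, 1 bar a library, with the sum written under each bar. Dnmt3l and Tet1 hold most of their family in ESC, at 67.2% and 75.4% in wild type, and Dnmt3a and Tet3 in RA-DIFF, at 69.7% and 54.7% in the library labelled wild type.

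Promoter sequence was looked at because 4 genes moved by over 2 on the log2 scale in both lines, Dnmt3b, Dnmt3l and Tet1 down and Tet3 up. RefSeq on GRCm38.p6 had 16 start sites for the 9 genes, and the windows, 250 bases before to 50 after the start nearest the gene's annotated 5′ end, are given 5′ to 3′ on the gene's strand for these 4, with each CpG, the dinucleotide that the enzymes act on, in capitals. They lie at chr10:78042037-78042336 (Dnmt3l, plus strand), chr2:153649199-153649498 (Dnmt3b, plus), chr10:62887275-62887574 (Tet1, minus) and chr6:83441629-83441928 (Tet3, minus).
Dnmt3l: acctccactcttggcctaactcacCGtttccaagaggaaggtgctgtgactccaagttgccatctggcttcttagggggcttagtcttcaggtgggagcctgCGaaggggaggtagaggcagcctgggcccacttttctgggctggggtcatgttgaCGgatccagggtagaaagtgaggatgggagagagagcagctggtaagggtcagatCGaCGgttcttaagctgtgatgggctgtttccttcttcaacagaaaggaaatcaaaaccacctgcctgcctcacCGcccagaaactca
Dnmt3b: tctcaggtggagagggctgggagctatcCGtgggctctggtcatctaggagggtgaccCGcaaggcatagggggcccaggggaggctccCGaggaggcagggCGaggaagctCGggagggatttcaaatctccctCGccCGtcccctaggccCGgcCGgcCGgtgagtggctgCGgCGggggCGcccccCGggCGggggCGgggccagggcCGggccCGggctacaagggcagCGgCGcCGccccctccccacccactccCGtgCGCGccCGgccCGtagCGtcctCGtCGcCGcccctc
Tet1: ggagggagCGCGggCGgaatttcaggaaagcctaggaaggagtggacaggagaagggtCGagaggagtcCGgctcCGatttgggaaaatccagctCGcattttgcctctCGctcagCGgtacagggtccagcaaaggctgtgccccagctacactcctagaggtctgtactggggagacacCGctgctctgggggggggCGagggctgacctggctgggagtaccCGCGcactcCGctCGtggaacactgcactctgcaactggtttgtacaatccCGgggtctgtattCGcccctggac
Tet3: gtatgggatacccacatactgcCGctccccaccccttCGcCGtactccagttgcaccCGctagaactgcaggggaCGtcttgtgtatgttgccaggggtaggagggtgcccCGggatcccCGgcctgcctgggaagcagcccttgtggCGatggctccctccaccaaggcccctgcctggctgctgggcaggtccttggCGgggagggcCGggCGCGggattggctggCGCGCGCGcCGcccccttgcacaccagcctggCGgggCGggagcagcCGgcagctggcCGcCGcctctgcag

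The Dnmt3l window held 6 CpG, near the median of 7 over all 32851 promoter windows. It lies inside the span of Aire, a gene on the opposite strand described below. Further Dnmt3l starts, at 78049842 and 78055335, had 4 and 3 CpG. Which start the cells used was not tested, for this gene or the others. The windows of Tet1, Tet3 and Dnmt3b held 17, 22 and 30. That of Tet2, which was also lower in RA-DIFF, had 57, at least as many as in 99.9% of windows. In these windows CpG counts thus ran from 6 to 57 among the genes that were lower in RA-DIFF. Of the 9 windows nearest the 5′ ends, 7 held GGGCGG, the core of the GC box bound by Sp-family factors, on either strand, as did 35.7% of all windows. Of the 16 windows of these genes 12 held it. The Dnmt1 window nearest the 5′ end had 2 CpG and no GGGCGG, whereas the inner start at 20952623 had 33 CpG and 2 such motifs. The Tet1 and Tet3 starts used, at 62887324 and 83441678, lie inside the annotated 5′ ends at 62899118 and 83459084. ATGCAAAT, the octamer bound by POU-family factors, was found in none of the 16 windows and in 1.74% of all, and the E2F-type motifs TTCCCGC and TTGGCGC in 1 window each, of Uhrf1 and of an inner start of Dnmt1, and in 4.6% and 2.45% of all. No methylation was measured in these libraries.

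Between genotypes in ESC none of the 9 genes was called, against 5.14% of all genes past the limit upwards in the Htt-null library and 3.47% downwards. The log2 ratios ran from -0.42 for Tet3 to 0.05 for Tdg, and 8 of 9 were below 0 (that of Dnmt3a, at -0.03, turns to 0.02 with scaling by library size alone), beside a median of -0.03 over all genes tested. The largest were those of Tet3, Tet2 (-0.37) and Dnmt3b (-0.35). With TMM scaling all ratios but that of Tdg exceeded counting error, and their spread between cultures is unknown.

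Between the RA-DIFF libraries 1 of the 9 genes was called, Dnmt3l, which was 6.11-fold lower in the library labelled Htt-null than in that labelled wild type (log2 ratio -2.61, -3.09 to -2.14). None was called higher. Over all genes 8.99% were called lower and 11.7% higher in this comparison. The other log2 ratios lay between -0.32 for Dnmt3b and 0.32 for Dnmt3a. With exchanged labels Dnmt3l would be higher in Htt-null RA-DIFF by the same amount.

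**Figure D3:**
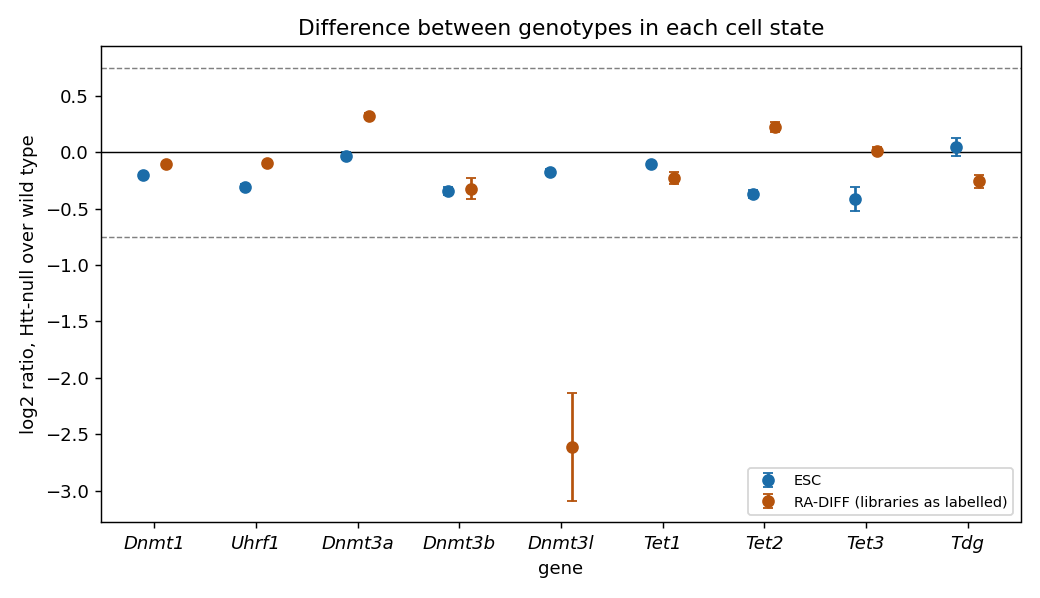
Log2 ratio of the Htt-null over the wild-type library for the 9 genes in ESC and in RA-DIFF as labelled, with 95% counting intervals; dashed lines mark the limit of 0.75. Only Dnmt3l in RA-DIFF lies outside, at -2.61, and exchanged RA-DIFF labels would mirror the RA-DIFF points about 0.

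The low level of Dnmt3l in RA-DIFF went with that of pluripotency genes. In the library labelled Htt-null 9 of 12 were called lower than in that labelled wild type and 1, Tbx3, was called higher, against 8.99% and 11.7% of all genes, with a median log2 ratio of -2.42. Pou5f1 kept 1.56% of its ESC level under the wild-type label and 0.193% under the Htt-null label, Nanog 1.26% and 0.28%, and Dnmt3l 0.877% and 0.162%. Sox2, which neural progenitors also express, kept 36.9% and 42.9%. Dnmt3l had a log2 ratio of -2.61 between these libraries, whereas Tet1, at 9.3% and 8.56%, and Dnmt3b, at 12.7% and 12.8%, parted them by log2 ratios of -0.23 and -0.32. The 12 genes summed to 6264 and 5543 CPM in wild-type and Htt-null ESC and to 284.6 and 234.5 CPM in RA-DIFF labelled wild type and Htt-null, most of the latter from Sox2. The part of remaining undifferentiated cells in the Dnmt3l difference was not tested.

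**Figure D4:**
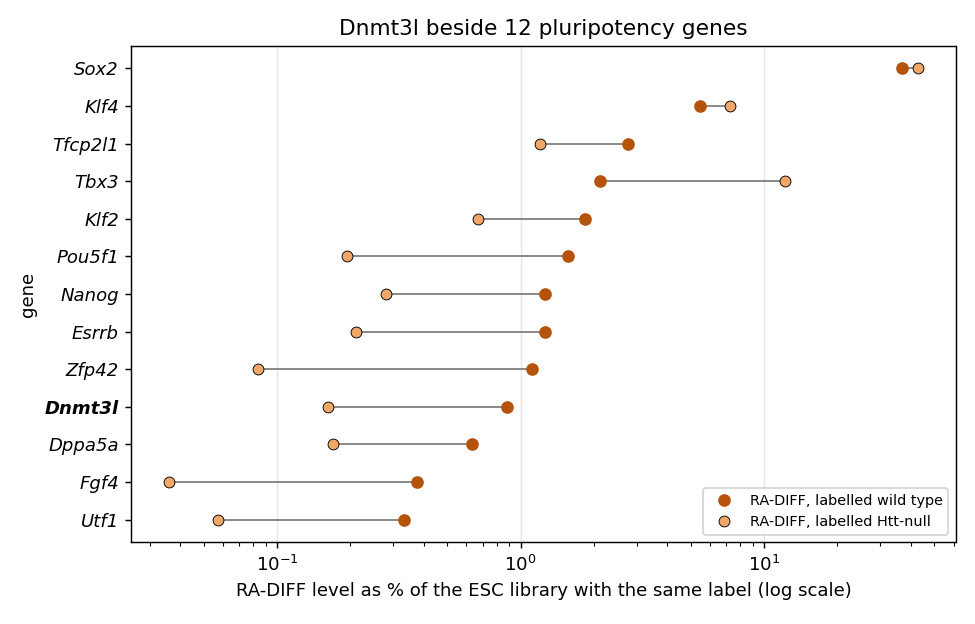
Level in RA-DIFF as a percentage of the ESC library with the same label (log scale) for Dnmt3l and 12 pluripotency genes, ordered by the library labelled wild type, 1 point a library. Dnmt3l, at 0.877% and 0.162%, parts the libraries in the same direction as 9 of the 12 genes, and Sox2, Klf4 and Tbx3 go the other way.

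Aire, the transcriptional regulator of thymic self-antigen display, overlaps Dnmt3l by 1664 bases on the opposite strand and was singled out after its values were seen. It had 9747 and 5842 counts in wild-type and Htt-null ESC, and 37 and 11 counts in RA-DIFF labelled wild type and Htt-null. The methods leave unnamed options of the counting at their defaults, which for HTSeq use strand, and the setting in force for the strand-specific libraries was not tested. In wild-type ESC Dnmt3a and Dnmt3b held 20430 and 14299 counts and their antisense genes 1 each, so counts followed the genes' own strand or no strand. The split of reads in the stretch shared by Aire and Dnmt3l is therefore uncertain. The antisense genes Dnmt3aos and Dnmt3bos held at most 7 counts in any library, and Gm14490 at most 21. This locus beside Dnmt3b is annotated as an unprocessed pseudogene and is known as that of Dnmt3c, a rodent de novo methyltransferase of male germ cells, and its level was too low to be tested. Glt8d2, which overlaps Tdg by 367 bases on the opposite strand, held between 33 and 274 counts.

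Genes of related function were grouped in 6 lists with 51 genes tested. With differentiation 11 were called higher and 18 lower in wild-type cells, where 33.9% and 26.1% of all genes were, and 10 and 16 in Htt-null cells, where 34.3% and 24.8% were. Of 8 maintenance partners, 3 were called lower in each line, among them Hells, a chromatin remodeller needed for methylation (log2 ratios -2.25 and -1.96), and its interactor Cdca7 (-1.23 and -1.44), with list medians of -0.49 and -0.58. Of 7 methylation readers, 4 were called higher in wild-type and 5 in Htt-null cells, among them the methyl-CpG-binding gene Mbd1 (1.41 and 1.53), and 1 was called lower, Zbtb38 (-2.21 and -1.30), with list medians of 1.39 and 1.53.

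Repair genes, which act after TDG, were split. Of 14 tested, 3 were called higher and 7 lower in wild-type cells, and 1 and 7 in Htt-null cells, with medians of -0.45 and -0.64. The shares over all genes, for this list and the lists that follow, were 33.9% and 26.1% in wild-type and 34.3% and 24.8% in Htt-null cells. The glycosylase genes Ung (-2.47 and -2.28), Mbd4 (-1.08 and -1.27) and Neil2 (-4.19 and -5.01) were called lower in both lines, whereas Smug1 (0.64 and 0.20) and Neil1 (-0.05 and -0.16) were not called. Neil3 (0.78 and 0.29) was called higher in wild-type and not in Htt-null cells as labelled. That call depends on the labels, as the RA-DIFF libraries part by a log2 ratio of -0.41 for Neil3. Gadd45g, a stress-response gene, was called higher in both (3.78 and 3.57), whereas its relatives Gadd45a (-1.84 and -1.38) and Gadd45b (-3.73 and -2.78) were called lower in both. Of 12 genes listed as recruiters or regulators of the enzymes, 2 were called higher and 4 lower in each line, with medians of -0.36 and -0.39. Cxxc4, a CpG-binding protein known to lower TET2 protein, was called higher (8.67 and 7.63) from 17 and 19 counts in ESC. Prdm14, a repressor of de novo methyltransferases in ESC, was called lower (-6.15 and -10.004), the second value resting on 2 counts in RA-DIFF labelled Htt-null. Of 9 cofactor genes, which make the methyl donor or handle 2-oxoglutarate, 2 were called higher and 3 lower in wild-type cells, and 2 and 1 in Htt-null cells. The tRNA methyltransferase gene Trdmt1, long listed with the DNMT family, was not called (-0.64 and -0.67).

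Between genotypes 1 of these 51 genes was called in ESC, where 5.14% of all genes were higher and 3.47% lower, and 2 in RA-DIFF, where 11.7% and 8.99% were. In ESC it was Dppa3, a maternal factor that restrains UHRF1 and has a pseudogene copy with which it may share reads, at 91 counts in wild-type and 551 in Htt-null cells (log2 ratio 2.98). In RA-DIFF it was Dppa3 at 72 and 8 counts in the libraries labelled wild type and Htt-null (-2.69) and Prdm14 at 71 and 2 counts (-3.95). Both are also known from pluripotent and germ cells, and their part in the Dnmt3l difference was not tested.

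**Figure D5:**
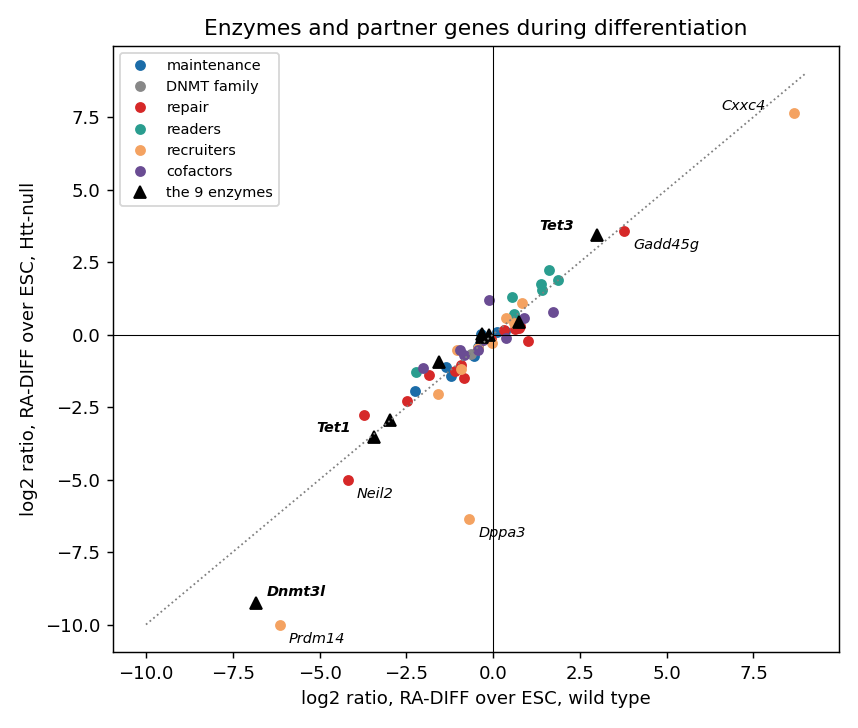
Log2 ratio of RA-DIFF over ESC in wild-type (x axis) and Htt-null cells (y axis) for the 9 enzymes (triangles) and 51 partner genes (points, colour by list), with the line of equal ratios dotted. As labelled most lie near the line, whereas Dnmt3l, Prdm14 and Dppa3 lie below it, Dppa3 at -0.69 and -6.36. With exchanged RA-DIFF labels Dnmt3l would lie above it, at -9.45 and -6.66, and the places of the other genes would change too.

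The genes whose profile over the 4 libraries lay nearest to each enzyme were found by the Euclidean distance of centred log2 CPM. Dnmt3l was nearest to L1td1 (distance 0.132), Triml2 (0.267) and 2410141K09Rik (0.313), Tet1 to Fbxo27 (0.052), Zfp473 and Coch, and Dnmt3b to Catsperg1 (0.051), Trim71 and Kcnk5. Tet3 was nearest to Mageh1 (0.108), Ttc8 and Fam214b, Tet2 to Tmem194 (0.04), 1110008F13Rik and Zfp931, and Tdg to Irf2bp1 (0.033), Gm12346 and Mzt2. For the flat profiles these were Chd6 (0.02), Ythdf3 and Akap8 with Dnmt1, Myo9a (0.039) and Thoc3 with Uhrf1, behind an unnamed transcript at 0.029, and Rasa2 (0.042), Plk1 and Siah2 with Dnmt3a. Over 4 libraries many genes lie close, and the nearest gene of Dnmt3l was farther off than that of any other enzyme.

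Small RNA libraries of the same 4 conditions, with 11976744 to 25656673 counts, gave the levels of 10 miRNAs listed for known action on mRNAs of these enzymes or on their regulators. Their mature sequences, from RefSeq, are shown because they fall into 3 groups that share a seed (bases 2 to 8, in capitals), through which a miRNA pairs with its targets. The miR-29 family is known to act on Dnmt3a, Dnmt3b and Tet mRNAs.
miR-29a-3p: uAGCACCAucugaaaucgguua
miR-29b-3p: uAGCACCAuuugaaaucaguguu
miR-29c-3p: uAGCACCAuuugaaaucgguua

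The miR-148 family is known to act on Dnmt1 and Dnmt3b mRNAs.
miR-148a-3p: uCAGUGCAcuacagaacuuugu
miR-148b-3p: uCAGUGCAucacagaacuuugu
miR-152-3p: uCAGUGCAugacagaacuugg

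The miR-290 and miR-302 clusters of pluripotent cells are known to act on repressors of the Dnmt3 genes.
miR-291a-3p: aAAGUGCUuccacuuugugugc
miR-294-3p: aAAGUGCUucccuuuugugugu
miR-295-3p: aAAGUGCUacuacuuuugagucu
miR-302b-3p: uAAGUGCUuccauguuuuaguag

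The most abundant of the AAGUGCU seed, miR-295-3p, was at 138800 CPM in wild-type ESC, 107900 in Htt-null ESC, 1060 in RA-DIFF labelled wild type and 1842 in RA-DIFF labelled Htt-null. Its log2 ratio of RA-DIFF over ESC was -5.87 in wild-type and -4.00 in Htt-null cells with TMM scaling, and -7.03 and -5.87 by library size alone. It was thus lower in RA-DIFF, as were Dnmt3b and Dnmt3l, and between the RA-DIFF libraries it stood higher under the Htt-null label (1.28, or 0.80 by library size). The Dnmt3l ratio in the RNA libraries was -2.61 as labelled and 2.61 with exchanged RNA labels, and the labels of the small RNA libraries were not checked, so the directions of the assays are not set against each other. miR-291a-3p and miR-294-3p ran the same way, from 7361 CPM or more in ESC to at most 186.2 CPM in RA-DIFF. miR-302b-3p, of the same seed, was higher with differentiation in wild-type cells as labelled by either scaling (2.81 with TMM, 1.64 by library size). In Htt-null cells its direction depended on the scaling (0.32 with TMM, -1.56 by library size). miR-148a-3p was at 19600, 15690, 4099 and 2251 CPM in the same order, lower in RA-DIFF by either scaling, while Dnmt1 was not called. Of the same seed, miR-148b-3p was at 2522, 3218, 538.4 and 376.7 CPM and miR-152-3p at 66.96, 149.2, 25.02 and 15.48 CPM, both with their lowest CPM in RA-DIFF labelled Htt-null. Between the RA-DIFF libraries as labelled their log2 ratios were -0.515 and -0.689 by library size, where the median of all miRNAs was -0.484. With TMM these ratios were -0.034 and -0.211. With differentiation in wild-type cells the log2 ratio of miR-148b-3p was -1.06 with TMM and -2.23 by library size, and that of miR-152-3p was -0.25 and -1.42. miR-29a-3p was at 74.33, 73.98, 41.63 and 19.06 CPM. Its log2 ratios with differentiation were 0.33 and -0.08 with TMM and -0.84 and -1.95 by library size, so its direction in wild-type cells depended on the scaling, which moved the median of all miRNAs from 0.03 to -1.11. miR-29b-3p and miR-29c-3p were scarcer, between 1.36 and 23.2 CPM. With TMM and by library size miR-29b-3p was lower with differentiation in wild-type (-0.291 and -1.438) and Htt-null cells (-1.195 and -3.009). In both lines miR-29c-3p turned from higher with TMM to lower by library size.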

How the data were processed

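RNA-seq and small RNA-seq were each carried out on 4 conditions with 1 library per condition, and all 8 samples were grouped by title. The authors aligned RNA reads with TopHat2 2.0.14 to GRCm38.p4, counted them per GENCODE gene with HTSeq 0.6.1 and deposited raw counts; small RNA reads were trimmed with cutadapt 1.3, mapped with BWA 0.7.5a-r418 to mature miRNAs and deposited as raw counts per miRNA (1073 miRNAs). Options of HTSeq other than the mode, strand included, were left at their defaults by the methods' account, and the strand setting in force was not tested.

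The gene table was scaled by TMM (edgeR 4.0.16, R 4.3.3) over the 4 libraries, and log2 ratios used a prior count of 2. A gene was tested when its mean log2 CPM exceeded 0 and called when its absolute log2 ratio exceeded 0.75. Without replicates there is no estimate of dispersion, so the quasi-likelihood test was not fitted and no p-value is given. CPM carry Wilson intervals. Levels per length used merged exons of GENCODE vM21, which matched 32304 genes.

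Members, lists and tests were chosen with earlier results of these data known. Named were the 9 enzymes, partner genes past the limit between genotypes, the 2 largest rises and 2 largest falls among partners with differentiation, the 3 nearest profiles per enzyme, the listed miRNAs and markers for the labels. Other genes named were added as examples after their values were seen.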

Additional observations from a re-analysis of the deposited data

Results flagged for a closer look

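Dnmt3a and Tet2 stood out because their genotype ratios had opposite signs at the 2 stages, each beyond counting error. For Dnmt3a the Htt-null library differed from the wild-type library by a log2 ratio of -0.03 in ESC, which turned to 0.02 with scaling by library size alone, and by 0.32 in RA-DIFF as labelled. For Tet2 it was -0.37 in ESC and 0.22 in RA-DIFF. With 1 library per condition the difference between stages was not tested, and with exchanged RA-DIFF labels both genes would have the same sign at both stages.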

How the results depend on the processing

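The counts of called enzymes stayed within 1.5 times under every alternative run, namely library-size and median-of-ratios scaling, a prior count of 0.5, no expression limit, a limit of 1, exact tests at assumed dispersions of 0.01 and 0.1, and exchanged RA-DIFF labels. Other scalings moved no log2 ratio of an enzyme by over 0.072. Library-size scaling added Tdg to the calls in wild-type cells and turned the sign of 3 uncalled ratios, while Tet2 lost its call in Htt-null cells at a limit of 1 and at a dispersion of 0.1. With exchanged labels the ratio of Dnmt3l between the RA-DIFF libraries turned to 2.61, and those of RA-DIFF over ESC moved to -9.45 and -6.66. By library size alone that of miR-29c-3p with differentiation in wild-type cells turned from 0.90 to -0.26 and in Htt-null cells from 0.74 to -1.12, that of miR-29a-3p in wild-type cells from 0.33 to -0.84, and that of miR-302b-3p in Htt-null cells from 0.32 to -1.56. At a dispersion of 0.1 the called partner genes were 17 in each line, in place of 29 and 26. With exchanged RA-DIFF labels they were 25 and 28, and those called higher in wild-type cells were 8 in place of 11. They were 2 in place of 1 in ESC with median-of-ratios scaling, where Idh2 passed the limit, and 4 in place of 2 in RA-DIFF without the expression limit. Lengths of the longest transcript changed 2 of 36 ranks per length, and also the levels behind the family shares.

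Over all genes, 797 were called higher and 537 lower between genotypes in ESC, and 1817 and 1393 in RA-DIFF. At a dispersion of 0.1 these were 152 and 100, and 815 and 526, and with differentiation 2673 rather than 4051 were called lower in wild-type and 2466 rather than 3847 in Htt-null cells. At a limit of 1 the genotype calls were 458 and 286 in ESC, and 1296 and 897 in RA-DIFF. Without the expression limit they were 5217 and 2943 of 32567 genes in ESC, and 4204 and 4384 in RA-DIFF.

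No paired analysis was possible because each condition has 1 library. For the same reason no replicate was left out. Depth limits only Dnmt3l in RA-DIFF labelled Htt-null, at 38 counts, among the enzymes. Genotype differences rest on 1 line each and on RA-DIFF labels that Htt goes against.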

Other observations

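Of 13 tested germline genes known to be silenced by promoter methylation, all 13 were called lower with differentiation in wild-type cells and 12 in Htt-null cells, against 26.1% and 24.8% of all genes, with median log2 ratios of -6.06 and -5.28. The 14 listed genes, 1 of them too low to be tested, summed to 384.7 and 378.0 CPM in wild-type and Htt-null ESC, and 10.7 and 18.0 CPM in RA-DIFF labelled wild type and Htt-null. Between the RA-DIFF libraries 5 were called higher under the Htt-null label and none lower, against 11.7% and 8.99% of all genes. The largest of these was Slc25a31, a sperm ADP/ATP carrier, at 101 and 541 counts (log2 ratio 2.58). In ESC 2 were called lower in Htt-null cells, against 3.47% of all genes, Asz1 (-1.66) and Slc25a31 (-1.10).

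Among mitosis genes 4 of 8 were called lower with differentiation in wild-type and 2 in Htt-null cells, against 26.1% and 24.8% of all genes. None was called between genotypes, where 5.14% of all genes were higher and 3.47% lower in ESC, and 11.7% and 8.99% in RA-DIFF. miR-302b-3p was at 41.0 CPM in wild-type ESC, 122.1 in Htt-null ESC, 128.2 in RA-DIFF labelled wild type and 41.5 in RA-DIFF labelled Htt-null, and its log2 ratio with differentiation was 2.81 with TMM scaling and 1.64 by library size in wild-type cells. In Htt-null cells it was 0.32 with TMM scaling and -1.56 by library size.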
